A study of Homo sapiens with 8 samples.

Results

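The SR and hnRNP splicing factors were followed in DU145 cells, a human prostate cancer cell line, with and without the estrogen related receptor beta (Esrrb) and its synthetic ligand DY131. The 42 genes described here are the rows of the deposited count table whose symbol is that of an SR protein, an SR-like protein, a CLK kinase, an hnRNP protein, a branch site or 3′ splice site factor, or an epithelial splicing regulator. They are 42 of 23391 genes, they were chosen by symbol, and all 42 passed the filter on low counts, which asked for 1 cpm (a count scaled to a common library size) or more in 2 or more of the 8 libraries. DU145-Esrrb cells carry the pcDNA3.1-zeo vector with Esrrb and DU145-pc3.1 cells the same vector empty, both as stable pools of Zeocin-selected cells and not as single clones. Each pool was sequenced untreated and after 3 μM DY131 in charcoal-stripped serum, with 2 libraries in each of the 4 groups, which the study calls biological replicates. How long the cells were exposed to DY131 is not given in the sources used here.

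SR proteins bind exons through RNA recognition motifs and recruit the spliceosome with domains rich in arginine and serine, which CLK kinases phosphorylate. Proteins of the hnRNP family coat nascent transcripts and often act against SR proteins at the same exons, while U2AF and the SF3 complexes mark the 3′ splice site and the branch site. ESRP1 and ESRP2 are the regulators that set epithelial splicing patterns, and many SR and hnRNP genes limit their own level by splicing their transcripts into forms that are degraded.

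Each library held between 7858743 and 11551690 counted reads, and both DY131-treated DU145-Esrrb libraries (7858743 and 9054498) were the shallowest. ESRRB had 0 to 3 counts in the 4 DU145-pc3.1 libraries and 99 to 143 in the 4 DU145-Esrrb libraries, in the order of the labels. The epithelial genes KRT8, KRT18, CDH1 and EPCAM were present in all libraries at 62.3 cpm or more. KLK3 and KLK2 had no counts, and the leukocyte, endothelial, fibroblast and muscle markers PTPRC, PECAM1, VWF, COL1A2, PDGFRA, DES and ACTA1 had at most 8. CD68 (59.3 to 93.5 cpm) and COL1A1 (2.74 to 5.70 cpm) were the markers of other cell types with counts in every library. Replicates were least alike in DY131-treated DU145-pc3.1 cells, where the chi-square of the counts per degree of freedom was 7.10, against 1.29 to 2.60 in the other groups. The p-values below weigh each difference between groups against the spread between these libraries. Whether a difference between the pools comes from Esrrb or from their separate transfection and selection was not tested.

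Across the 8 libraries the splicing factors took between 1.11% and 1.42% of all counts. A 50-base read that crosses an exon junction has to be split to be placed on the genome, so each gene was also described by its junction share, which is the percentage of all 50-base windows of the listed transcript that cross at least 1 exon junction. Windows from 4 members are shown to make this measure concrete, each with 25 bases on either side of the first junction whose window lies wholly in coding sequence, with the downstream exon in capitals, from GENCODE 29 transcripts on GRCh38. U2AF1 and HNRNPL have the highest junction shares of the 42 genes, and SRSF1 and SRSF10 have low ones and, of the 42 genes, the largest rises with DY131 in DU145-Esrrb cells.
U2AF1: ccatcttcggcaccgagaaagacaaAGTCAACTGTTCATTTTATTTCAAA
HNRNPL: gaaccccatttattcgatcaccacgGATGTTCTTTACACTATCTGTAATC
SRSF1: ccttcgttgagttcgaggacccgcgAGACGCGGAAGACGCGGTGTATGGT
SRSF10: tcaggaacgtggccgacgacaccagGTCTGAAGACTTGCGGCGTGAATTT

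The U2AF1 window joins exons 1 and 2 of its 8 exons on the minus strand, chr21:43107451-43107475 and chr21:43104378-43104402, across an intron of 3048 bases. The HNRNPL window joins exons 3 and 4 of 13, chr19:38845853-38845877 and chr19:38845711-38845735, also on the minus strand. In SRSF1 the window joins exons 1 and 2 of only 3, chr17:58006944-58006968 and chr17:58006503-58006527, and in SRSF10 exons 1 and 2 of 6, chr1:23980191-23980215 and chr1:23978793-23978817, both on the minus strand. The listed transcripts are 940 bases long for U2AF1, 1633 for HNRNPL, 3117 for SRSF1 and 2917 for SRSF10. Their junction shares are 38.5%, 36.7%, 3.19% and 8.54%, and the median share was 18.3% over the 42 genes and 14.4% over all tested genes. SRSF8 and HNRNPA0, listed with 1 exon each, have a share of 0%.

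On the per-length scale (cpm per kilobase of the listed transcript, mean of the 2 untreated DU145-pc3.1 libraries), levels ran from 0.687 for SRSF10 and 0.907 for ESRP1 to 755 for HNRNPA2B1 and 806 for HNRNPC. HNRNPC binds uridine tracts in nascent RNA and HNRNPA2B1 binds pre-mRNA and microRNA precursors. The classical SR proteins with the highest levels were SRSF9 at 162, SRSF2 at 158 and SRSF1 at 145 cpm per kilobase. The CLK kinases lay lower, between 2.89 for CLK4 and 28.1 for CLK2. ESRP2 at 16.6 cpm per kilobase was far above ESRP1 in these cells. The table lists each gene under 1 RefSeq transcript, and these are not the longest known form for every gene. The listed HNRNPC and HNRNPA2B1 transcripts have 30.5% and 46.7% of the length of their longest coding forms. SF3B1, the branch site subunit of the U2 particle, is listed under NM_001005526, matched to 651 bases, 9.98% of its longest coding transcript. Its level of 31.6 cpm per kilobase and its junction share are calculated from that short form. Whether its counts, and so its changes given below, come from that form alone is not known. SRSF10, a repressor of splicing when dephosphorylated, had only 18 to 34 counts in each library outside DY131-treated DU145-Esrrb cells. How the authors' program divided reads among forms is not given in the sources used here.

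Expression of Esrrb alone was compared first, and few splicing factors differed between untreated DU145-Esrrb and DU145-pc3.1 cells. CLK4 and HNRNPA0 fell and no member rose, by edgeR's quasi-likelihood test at a Benjamini-Hochberg adjusted p under 0.05. These 2 of 42 (4.76%) stand beside 4.18% of all 13856 tested genes called in either direction, 1.68% that rose and 2.50% that fell. The members had a median change of -0.03 (log2), and all tested genes one of 0.00. In 26 members the cpm of both groups did not overlap, lower with Esrrb in 17 and higher in 9, beside 25.8% and 25.7% of all tested genes. This comparison shares its untreated libraries with the DY131 comparisons that follow.

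CLK4, one of the kinases that phosphorylate SR proteins, measured 6.39 and 8.45 cpm without Esrrb, and 4.24 and 4.23 cpm with it. Both Esrrb libraries lay below both controls. Its log2 fold change was -0.81 (standard error 0.21, edgeR adjusted p = 0.0406), a 1.76-fold lower level. HNRNPA0, an hnRNP protein that binds AU-rich elements, was at 221 and 219 cpm without and 181 and 184 cpm with Esrrb. The groups did not overlap, and the change was -0.27 (standard error 0.06, edgeR adjusted p = 0.0178). Neither call was kept when any 1 of the 4 libraries was left out, with adjusted p between 0.0652 and 0.374 for CLK4 and between 0.117 and 0.196 for HNRNPA0 (edgeR). DESeq2 called HNRNPA0 and not CLK4. Each library comes from a whole culture, so fewer cells with the RNA and less RNA in each cell cannot be told apart.

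ESRP1 had 40 and 34 counts in DU145-pc3.1 cells and 19 and 16 in DU145-Esrrb cells, or 3.82 and 2.99 against 1.61 and 1.47 cpm. All values with Esrrb were the lower ones. The log2 fold change of -1.13 (standard error 0.39) did not pass the test, with an adjusted p of 0.139 in edgeR's quasi-likelihood test. Its adjusted p was 0.0551 with edgeR's exact test. It was 0.0176 when the 4 untreated libraries were fitted alone and 0.00460 with no filter on low counts (edgeR). The study, which used an exact test, listed ESRP1 among the genes altered by Esrrb, at -1.13. SRSF1 (-0.11, edgeR adjusted p = 0.357), PTBP1 (-0.04, 0.763), SF3B1 (0.08, 0.738) and ESRP2 (-0.01, 0.983) did not pass the quasi-likelihood test. No member passed both the adjusted p and a 2-fold change, where 0.577% of tested genes did, and this count was also 0 with DESeq2 and with edgeR's exact test. Without adjustment, 8 members had a p under 0.05 by edgeR's quasi-likelihood method and 5 by either of the other tools. The share of all tested genes under this unadjusted p was not counted, so these numbers have no background beside them.

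DY131 was then given to DU145-pc3.1 cells, which asks what the ligand does without the transfected receptor. Here 25 splicing factors rose and 2 fell at an adjusted p under 0.05 by edgeR's quasi-likelihood test. The 25 are 59.5% of the 42 genes, and 18.9% of all tested genes rose, out of 37.4% called in either direction. The 2 that fell are 4.76%, against 18.5% of all tested genes. The median change (log2) was 0.25 over the members and 0.00 over all genes. In 28 members both treated libraries lay above both controls, and in 2 they lay below, where this held for 32.0% and 33.6% of tested genes. Only ESRP1 passed the 2-fold threshold as well, 1 of 42 beside 4.19% of tested genes. The study, which used an exact test with the same 2 thresholds, reported no gene altered by DY131 in these cells. Here ESRP1 also passed both with edgeR's exact test (1.87, adjusted p = 1.63e-08). Where the difference from the study comes from was not tested.

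**Figure D1:**
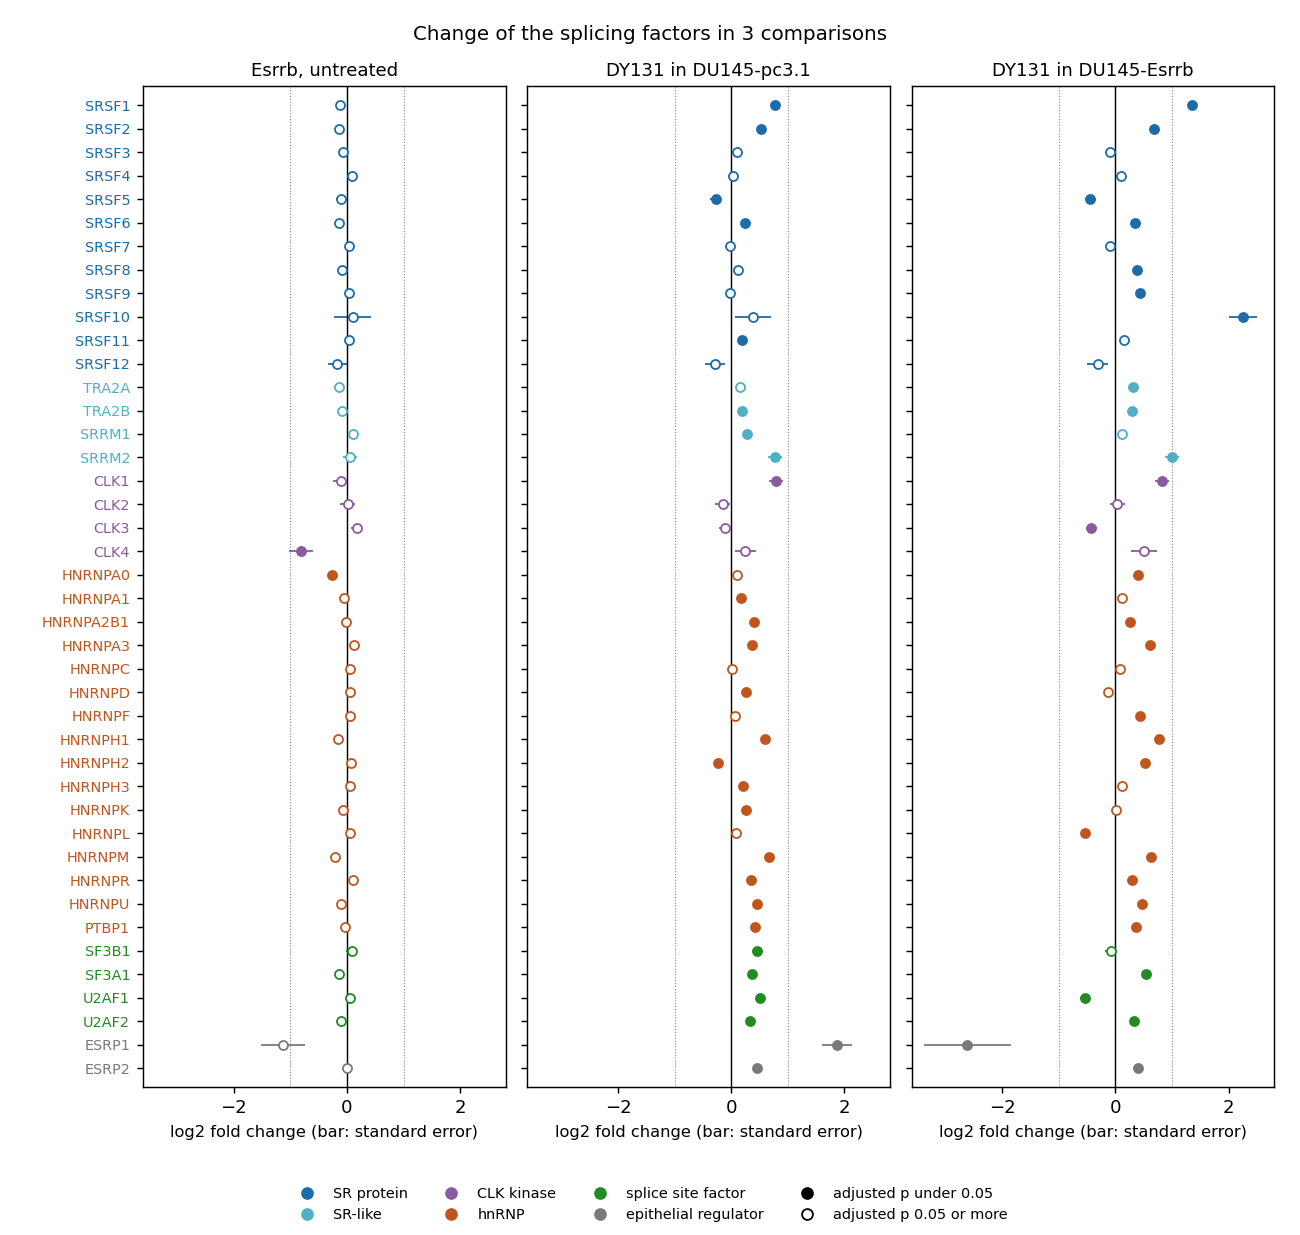
Log2 fold change with its standard error (horizontal axis) of each of the 42 splicing factors (vertical axis, grouped by role) for Esrrb in untreated cells and for DY131 in each cell pool. Filled points passed the edgeR test at an adjusted p under 0.05, and dotted lines mark a 2-fold change. Most filled points lie to the right of 0 in both DY131 panels, and ESRP1 lies at 1.87 in DU145-pc3.1 and at -2.61 in DU145-Esrrb cells.

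Among the 12 SR proteins, SRSF1, SRSF2, SRSF6 and SRSF11 rose in DU145-pc3.1 cells and SRSF5 fell, while the other 7 had log2 fold changes between -0.28 and 0.39 and did not pass. SRSF1, the founding SR protein and a driver of cell growth when overexpressed, went from 448 and 454 cpm to 754 and 784 cpm. The treated libraries were far above the controls, and the log2 fold change was 0.77 (standard error 0.06, edgeR adjusted p = 2.45e-07). SRSF2 was at 304 and 303 cpm before and 444 and 431 cpm after DY131, without overlap. SRSF5 was at 195 and 195 cpm in controls and 184 and 138 cpm after DY131. All treated values were lower but they differed among themselves. The change of -0.27 (edgeR adjusted p = 0.0314) became -0.08 (adjusted p = 0.286) without the second DY131 library. It also missed the threshold when either control library was left out.

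Of the SR-like proteins, TRA2B, SRRM1 and SRRM2 rose and TRA2A (0.16) did not pass. SRRM2, the large scaffold protein of nuclear speckles, was at 334 and 323 cpm in controls and at 678 and 444 cpm after DY131. Both treated libraries were above the controls, although the first far exceeded the second. Its log2 fold change was 0.77 (standard error 0.12, edgeR adjusted p = 1.72e-04), and it was 1.05 without the second treated library and 0.45 without the first. CLK1, a kinase that releases SR proteins from speckles, rose from 14.9 and 12.7 cpm to 22.7 and 24.8 cpm. It was the CLK kinase that passed, at 0.79 on the log2 scale (standard error 0.12, edgeR adjusted p = 1.26e-04), while CLK2, CLK3 and CLK4 had values between -0.15 and 0.25.

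In the hnRNP group 11 of 16 rose, namely HNRNPA1, HNRNPA2B1, HNRNPA3, HNRNPD, HNRNPH1, HNRNPH3, HNRNPK, HNRNPM, HNRNPR, HNRNPU and PTBP1. HNRNPM, a regulator of alternative exons that binds GU-rich RNA, was at 263 and 262 cpm in controls and 427 and 409 cpm after DY131. The groups did not overlap, and the log2 fold change was 0.67 (standard error 0.06, edgeR adjusted p = 6.42e-07). HNRNPH1, which binds runs of guanines, was at 311 and 353 cpm and then at 527 and 474 cpm, a log2 fold change of 0.59 (standard error 0.07, edgeR adjusted p = 1.19e-05). PTBP1, the polypyrimidine tract binding repressor of exons, was at 414 and 403 cpm and then at 564 and 534 cpm. It changed by 0.43 (standard error 0.05, edgeR adjusted p = 2.46e-05), with both treated libraries higher.

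HNRNPH2, the X-linked homolog of HNRNPH1, was the hnRNP gene that fell. It was at 141 and 134 cpm in controls and at 108 and 126 cpm after DY131. The groups were separate, with a change of -0.23 (standard error 0.07, edgeR adjusted p = 0.0184), but the change was -0.11 (adjusted p = 0.179) without the first treated library and -0.19 (adjusted p = 0.145) without the first control. HNRNPA0, HNRNPC, HNRNPF and HNRNPL had log2 fold changes between 0.02 and 0.10 and did not pass. The smaller rises also depended on single libraries. The edgeR adjusted p reached 0.286 for HNRNPA1 (log2 fold change 0.11), 0.0936 for HNRNPD (0.17), 0.249 for HNRNPH3 (0.12) and 0.190 for TRA2B (0.16) without the first control library, and 0.141 for SRSF11 (0.17). TRA2B was also lost without the second control (0.23, edgeR adjusted p = 0.0680) or the second treated library (0.11, 0.168), SRSF11 without the second control (0.21, 0.0701) and HNRNPH3 without the second treated library (0.14, 0.0690). Without the first treated library, SRSF3, SRSF8 and SRSF12 were at 0.16, 0.20 and -0.57, and CLK2, HNRNPA0 and HNRNPF at -0.48, 0.19 and 0.13 (log2). A fit that leaves 1 library in a group takes its spread from the other groups. Its p-values do not measure variation within that group. DESeq2 called 25 members, SRSF5 and SRSF11 not among them.

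All 4 splice site factors rose in DU145-pc3.1 cells. U2AF1, the small subunit that reads the AG of the 3′ splice site, went from 54.6 and 58.2 cpm to 82.9 and 77.7 cpm. SF3B1, listed under its short form, went from 21.1 and 19.99 cpm to 27.1 and 29.4 cpm. Neither pair of groups overlapped, and the log2 fold changes were 0.51 for U2AF1 and 0.46 for SF3B1 (standard errors 0.07 and 0.10, edgeR adjusted p = 8.07e-05 and 0.00192). SF3A1 (0.36) and U2AF2 (0.33), the large subunit that binds the polypyrimidine tract, rose as well.

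Both epithelial regulators rose with DY131 in DU145-pc3.1 cells. ESRP1 was at 3.82 and 2.99 cpm in controls and at 8.79 and 16.2 cpm after DY131, from 94 and 163 counts. Both treated values were higher, and the second far exceeded the first. The log2 fold change was 1.87 (standard error 0.27, edgeR adjusted p = 7.85e-05), with a range of 1.37 to 2.26 when any 1 of the 4 libraries was left out. ESRP2 was at 63.4 and 62.2 cpm and then at 91.6 and 81.6 cpm, a log2 fold change of 0.46 (standard error 0.07, edgeR adjusted p = 1.72e-04).

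In DU145-Esrrb cells, DY131 was compared with the untreated cells of the same pool, which asks what the ligand does in the presence of its receptor. By edgeR's quasi-likelihood test at an adjusted p under 0.05, 23 members rose and 5 fell, where 58.7% of all tested genes were called in either direction. The 23 are 54.8% of the 42 genes, where 29.2% of all tested genes rose. The 5 that fell are 11.9%, where 29.5% of tested genes fell. Their median change was 0.30 (log2), beside 0.00 for the whole table. Both treated libraries lay above both controls in 30 members and below them in 9, which held for 40.7% and 41.6% of tested genes. SRSF1, SRSF10 and SRRM2 rose at least 2-fold (7.14%, against 2.98% of tested genes) and ESRP1 fell at least 2-fold (2.38%, against 9.04%), together 4 of 42 beside 12.0%.

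SRSF1 was at 397 and 437 cpm in untreated and at 1055 and 1075 cpm in treated DU145-Esrrb cells, the highest values of the 8 libraries. The log2 fold change was 1.35 (standard error 0.06, edgeR adjusted p = 1.06e-10), a 2.56-fold rise. Of the 50-base windows of its listed transcript, 58.5% are also found in AC015813.2, which overlaps it on the same strand, so that the counts of these genes cannot be fully told apart. SRSF10 had 28 and 21 counts without and 90 and 81 with DY131, or 2.38 and 1.93 against 11.7 and 9.16 cpm. No other group reached these values. Its log2 fold change was 2.26 (standard error 0.25, edgeR adjusted p = 1.74e-06), a 4.79-fold rise.

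Other SR proteins rose less steeply in these cells. The log2 fold changes were 0.68 for SRSF2, 0.34 for SRSF6, 0.39 for SRSF8 and 0.43 for SRSF9, the edgeR adjusted p lay between 3.27e-07 and 2.99e-04, and treated libraries were above untreated ones for each. SRSF9 was at 198 and 202 cpm before and at 273 and 267 cpm after DY131. SRSF5 fell from 178 and 185 cpm to 138.5 and 127.5 cpm. The groups did not overlap, and the log2 fold change was -0.45 (standard error 0.10, edgeR adjusted p = 0.00100). SRSF3, SRSF4, SRSF7, SRSF11 and SRSF12 had values between -0.32 and 0.15 and did not pass.

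SRRM2 was at 343 and 339 cpm in untreated and at 677 and 688 cpm in treated DU145-Esrrb cells. These replicates were close to each other, unlike those of DU145-pc3.1 cells with DY131. The log2 fold change was 1.00 (standard error 0.12, edgeR adjusted p = 5.36e-06), at the 2-fold threshold. TRA2A (0.31) and TRA2B (0.30), paralogs that activate exons with GAA repeats, rose too, TRA2A not without the second treated library (0.23, edgeR adjusted p = 0.0670), and SRRM1 (0.11) did not pass. CLK1 was at 12.3 and 13.2 cpm before and at 21.4 and 23.9 cpm after DY131, a log2 fold change of 0.83 (standard error 0.13, edgeR adjusted p = 4.52e-05). CLK3 fell, from 39.1 and 35.0 cpm to 28.2 and 27.0 cpm, by 0.43 on the log2 scale (standard error 0.10, edgeR adjusted p = 0.00160). Neither kinase had overlapping groups, and CLK2 (0.03) and CLK4 (0.51) did not pass. CLK4 was at 0.72 without the first treated library, and SRSF11 at 0.23 without the second untreated one.

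**Figure D2:**
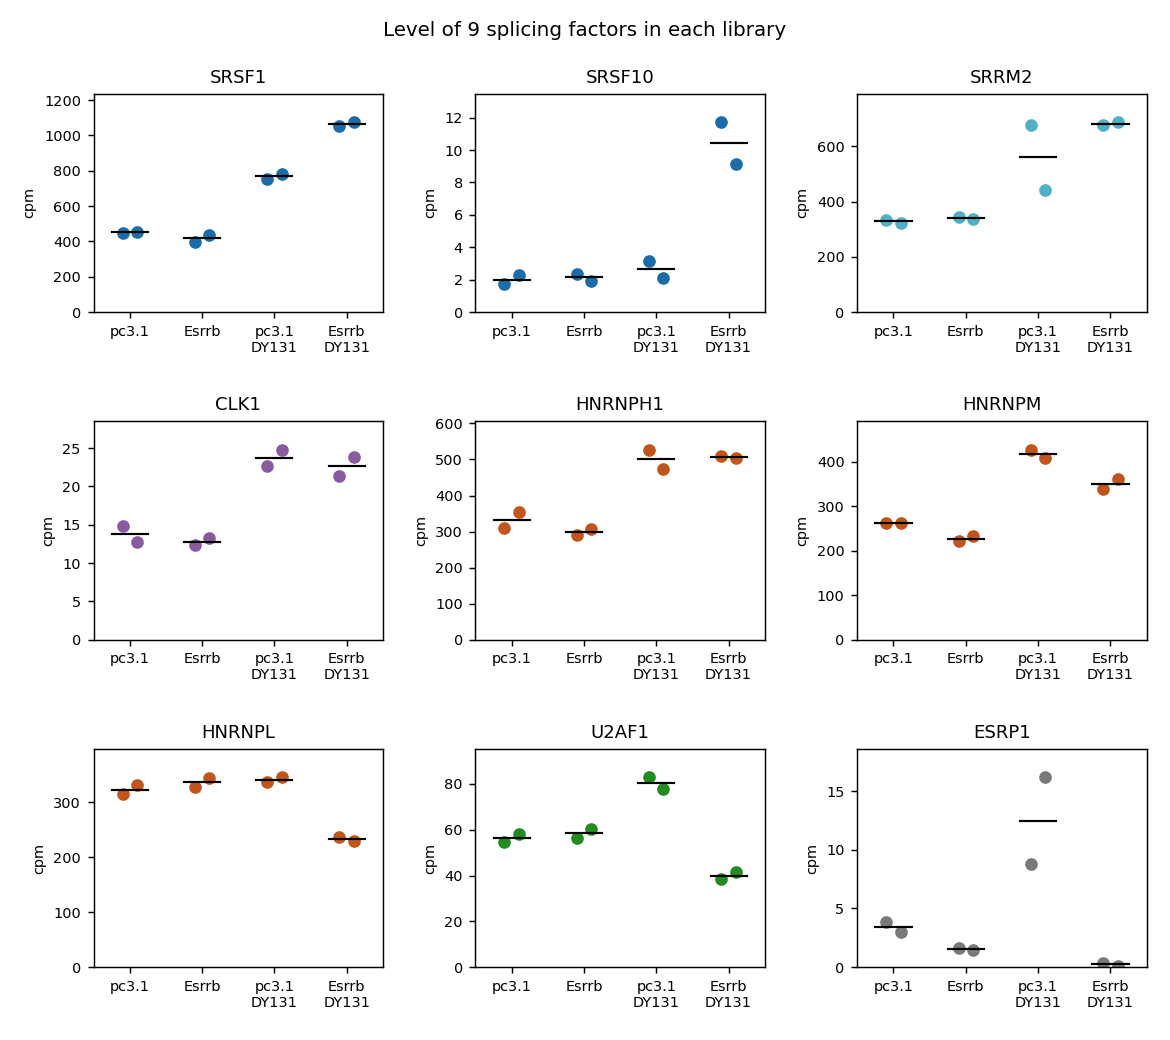
Level in cpm (vertical axis, from 0) of 9 splicing factors in each of the 8 libraries (points) of the 4 groups (horizontal axis), with the mean of the 2 libraries as a bar. SRSF1 and SRSF10 are highest with Esrrb plus DY131 (1055 and 1075 cpm, 11.7 and 9.16 cpm), whereas HNRNPL, U2AF1 and ESRP1 are lowest there.

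Of the 16 hnRNP genes, 10 rose and 1 fell in DU145-Esrrb cells with DY131. HNRNPH1 had the largest rise, from 290 and 308 cpm to 509 and 505 cpm. Its treated and untreated libraries were well apart, and the log2 fold change was 0.76 (standard error 0.07, edgeR adjusted p = 2.97e-07). HNRNPM was at 222 and 232 cpm before and 337 and 360 cpm after DY131, again without overlap. HNRNPM (0.62), HNRNPA3 (0.60), HNRNPH2 (0.53), HNRNPU (0.46), HNRNPF (0.44), HNRNPA0 (0.40), PTBP1 (0.36), HNRNPR (0.29) and HNRNPA2B1 (0.25) rose as well. PTBP1 was at 395 and 398 cpm before and at 510 and 511 cpm after DY131 (standard error 0.05, edgeR adjusted p = 4.08e-05). HNRNPL, a protein that binds CA repeats, fell from 329 and 344 cpm to 237 and 230 cpm. All treated values were lower, and the log2 fold change was -0.53 (standard error 0.06, edgeR adjusted p = 1.50e-06). HNRNPL shares 49.4% of its windows with other transcripts, and HNRNPA1, HNRNPC, HNRNPD, HNRNPH3 and HNRNPK had values between -0.12 and 0.12 and did not pass.

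U2AF1 fell in these cells, from 56.5 and 60.2 cpm to 38.3 and 41.7 cpm. Its treated libraries were the lowest of all 8, and the log2 fold change was -0.54 (standard error 0.08, edgeR adjusted p = 4.31e-05). In the GRCh38 annotation, 99.2% of the windows of U2AF1 also occur in U2AF1L5, its near-identical copy. The reads were mapped on hg18, and whether hg18 holds this copy was not checked. SF3A1 (0.55) and U2AF2 (0.32) rose. SF3B1, at 21.3 and 22.3 cpm before and 20.9 and 20.2 cpm after DY131, had a change of -0.08 (log2, standard error 0.11, edgeR adjusted p = 0.510).

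ESRP1 had 19 and 16 counts in untreated and 3 and 1 counts in treated DU145-Esrrb cells. The treated counts were at or under the floor of 3 counts, and all were below the untreated ones. The ratio of treated to untreated cells was 0.157, with a 95% exact counting interval of 0.0405 to 0.439, which covers counting error only. The fitted log2 fold change of -2.61 (standard error 0.77, edgeR adjusted p = 0.00872) was -3.64 without the first treated library and -1.95 (adjusted p = 0.104) without the second. ESRP2 went the other way, from 60.0 and 65.2 cpm to 82.5 and 81.6 cpm, a log2 fold change of 0.39 (standard error 0.08, edgeR adjusted p = 3.92e-04).

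The DY131 comparisons in the 2 pools share no library. Of the 25 members that rose in DU145-pc3.1 cells, 16 (64.0%) also rose in DU145-Esrrb cells, and these are 69.6% of the 23 that rose there. Over all tested genes the corresponding shares were 63.2% and 40.9%. The 16 were SRSF1, SRSF2, SRSF6, TRA2B, SRRM2, CLK1, HNRNPA2B1, HNRNPA3, HNRNPH1, HNRNPM, HNRNPR, HNRNPU, PTBP1, SF3A1, U2AF2 and ESRP2. U2AF1 and ESRP1 rose in the empty-vector pool and fell in the Esrrb pool, and HNRNPH2 did the opposite.

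Whether the DY131 effects differed between the pools was tested with the interaction in the same model. The difference passed an adjusted p under 0.05 by edgeR's quasi-likelihood test in 14 of 42 members (33.3%), where 33.7% of all tested genes passed. The DY131 effect was more positive with Esrrb in 8 of them (19.0%, against 16.1%) and more negative in 6 (14.3%, against 17.6%). These shares are close to those of the whole table. SRSF10 (1.87), U2AF1 (-1.05) and ESRP1 (-4.48) differed at least 2-fold, 7.14% of the members beside 6.28% of tested genes.

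SRSF1 rose more with Esrrb than without it, a difference of 0.58 on the log2 scale (standard error 0.08, edgeR adjusted p = 9.55e-05). SRSF10 had 34 and 21 counts, or 3.18 and 2.08 cpm, in DU145-pc3.1 cells with DY131, overlapping its untreated values, and the difference of 1.87 (standard error 0.41) had an edgeR adjusted p of 0.00292. HNRNPF, a homolog of HNRNPH1, was at 543 and 559 cpm in untreated DU145-pc3.1, 556 and 599 cpm in treated DU145-pc3.1, 570 and 577 cpm in untreated DU145-Esrrb and 790 and 764 cpm in treated DU145-Esrrb cells. Only the last group stood apart, and the difference was 0.37 (standard error 0.08, edgeR adjusted p = 0.00253). SRSF9 differed by 0.45 and HNRNPH2 by 0.76, where HNRNPH2 was at 146 and 141 cpm before and 209 and 205 cpm after DY131 in DU145-Esrrb cells. The differences of SRSF8 (0.27), HNRNPA0 (0.30) and HNRNPA3 (0.24) were smaller. All 8 lie at a junction share of 12.8% or less.

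On the other side, U2AF1 had a difference of -1.05 (standard error 0.11, edgeR adjusted p = 6.22e-06), HNRNPL of -0.61 (standard error 0.08, 4.73e-05), SF3B1 of -0.54 (standard error 0.14, 0.00930), HNRNPD of -0.38 (standard error 0.09, 0.00498) and HNRNPK of -0.24. HNRNPD, which binds AU-rich RNA, was at 275 and 312 cpm in untreated and 346 and 355 cpm in treated DU145-pc3.1 cells, and at 306.5 and 306 cpm and then 289 and 274 cpm in DU145-Esrrb cells. The 5 genes have junction shares between 22.3% and 38.5%. ESRP1, at 19.7%, had a difference of -4.48 (standard error 0.78, edgeR adjusted p = 4.85e-04), which was -5.51 without the first and -3.82 without the second treated DU145-Esrrb library. PTBP1 (-0.06, edgeR adjusted p = 0.568) and ESRP2 (-0.07, 0.630) had differences within their error. With 1 library left out in turn, the calls of SRSF8, HNRNPA0, HNRNPA3 and HNRNPK were lost at least once, with edgeR adjusted p of up to 0.207, 0.0767, 0.186 and 0.112. Without the first DY131-treated DU145-pc3.1 library, the differences of SRSF3, SRRM2, CLK2 and HNRNPH1 were -0.27, 0.55, 0.51 and 0.23. Without the second, those of SRSF5, SRRM1, CLK3 and HNRNPA2B1 were -0.37, -0.22, -0.41 and -0.19. These fits hold no spread between the treated DU145-pc3.1 libraries, which were the least alike. DESeq2 called 11 of the 14, without SRSF8, HNRNPA3 and SF3B1 (adjusted p = 0.0762 for SF3B1).

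Junction share moved with the change after DY131 in DU145-Esrrb cells across the whole table. The median log2 fold change of all genes was 0.27 in the lowest of 10 equal bins of junction share and -0.55 in the highest, while in DU145-pc3.1 cells the medians of the bins ran from -0.03 to 0.03. Over the 42 splicing factors, Spearman's rho between junction share and log2 fold change was -0.37 in DU145-Esrrb cells and 0.14 in DU145-pc3.1 cells, and over 13664 genes it was -0.38 and 0.01. Pearson's r over the members was -0.31 and 0.12. These are descriptions across genes of the same libraries, which are not independent replicates, and the cause of the trend was not tested. Among the 18 members at or below the median share of all genes, 13 rose (72.2%), 0 fell and the median change was 0.42, beside 40.3% that rose, 16.4% that fell and a median of 0.17 among all 6832 genes in that range. Among the 24 above it, 10 rose (41.7%), 5 fell (20.8%) and the median was 0.14, beside 18.1%, 42.8% and -0.21 among all genes.

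**Figure D3:**
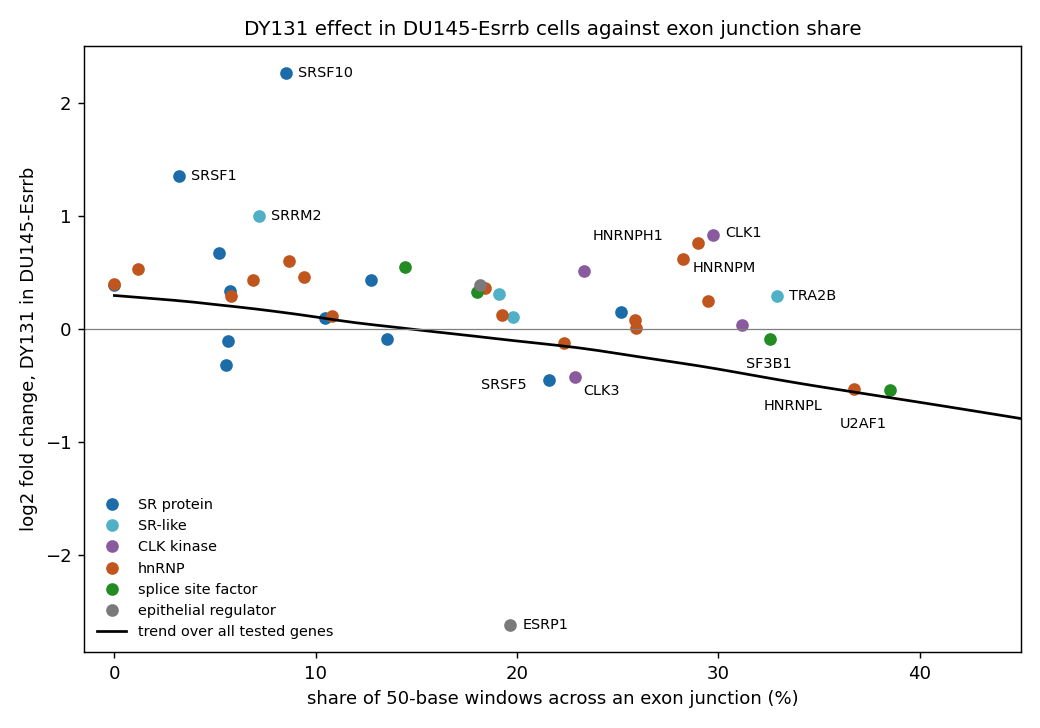
Log2 fold change after DY131 in DU145-Esrrb cells (vertical axis) against the share of 50-base windows of the transcript that cross an exon junction (horizontal axis, percent) for the 42 splicing factors, coloured by role. The line is the local trend over all tested genes, which falls from left to right, and HNRNPL and U2AF1 lie on it while CLK1, HNRNPH1, HNRNPM and TRA2B lie above it.

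Set against the trend of all genes at the same share, the members sat mostly above it. In the bins of junction share, 8 of the 42 lay below the median of all genes in their bin. U2AF1 and HNRNPL, which fell, were 0.06 and 0.03 above the trend at their shares of 38.5% and 36.7%. CLK1 (29.7%), HNRNPH1 (28.97%) and HNRNPM (28.2%) rose in a bin whose median over all genes was -0.30, and they were 0.92 to 1.17 above the trend. SRSF1, at 3.19%, was 1.10 above it, and ESRP1 at 19.7% differed from it by -2.51.

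The fit was repeated with each library's counts corrected for its trend over junction share. By edgeR's quasi-likelihood test after this correction 27 members rose and 5 fell (64.3% and 11.9%, where 27.4% and 26.0% of all tested genes did), and the median was 0.32. SRSF10 (2.11), CLK1 (1.16), SRSF1 (1.10) and HNRNPH1 (1.07) then rose at least 2-fold, while SRRM2 (0.82) did not, and ESRP1 (-2.53) fell. The falls of U2AF1 and HNRNPL turned into 0.05 and 0.02 (edgeR adjusted p = 0.601 and 0.838). SRSF6, SRSF8, HNRNPA0 and HNRNPR, all with shares under 6%, no longer passed. SRSF11, SRRM1, CLK2, CLK4, HNRNPC, HNRNPH3, HNRNPK and SF3B1 rose after the correction, at log2 fold changes between 0.20 and 0.67, and SRSF3 (-0.31) and SRSF12 (-0.53) fell. SRSF5 (-0.32) and CLK3 (-0.28) fell with and without it.

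**Figure D4:**
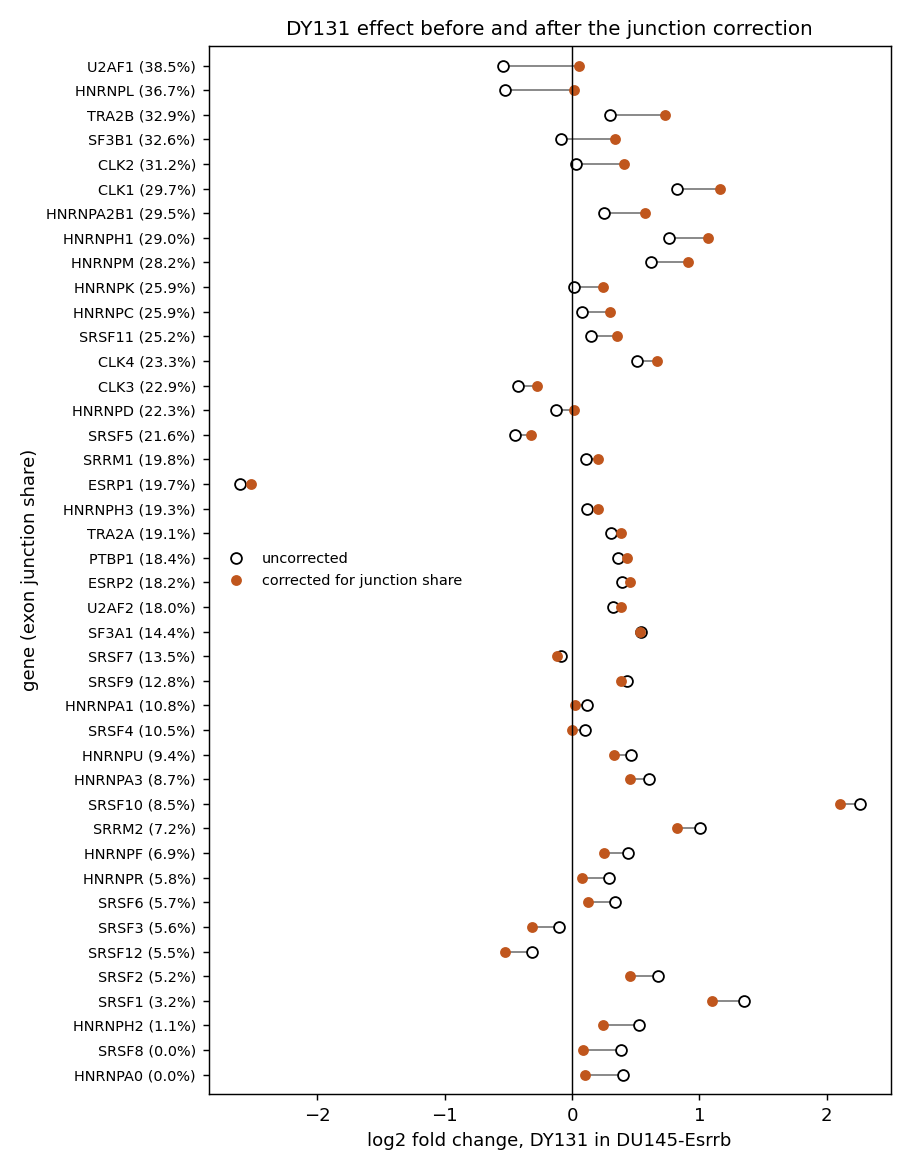
Log2 fold change after DY131 in DU145-Esrrb cells (horizontal axis) before (open) and after (filled) the correction for junction share, for the 42 splicing factors ordered by their share (vertical axis, percent in brackets). Values of junction-rich genes at the top move to the right, among them U2AF1 from -0.54 to 0.05, and values of genes with few junctions move to the left, among them SRSF1 from 1.35 to 1.10.

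The interaction was also repeated with the correction, and 13 members passed (31.0%, beside 22.2% of tested genes). U2AF1 kept a difference of -0.47 (edgeR adjusted p = 0.00524), below 2-fold, and SRSF10 (1.71) and ESRP1 (-4.40) stayed above it. SRSF1 (0.30), SRSF9 (0.40) and HNRNPH2 (0.43) passed with and without the correction. The differences of HNRNPL (-0.07), SF3B1 (-0.12), HNRNPD (-0.24), HNRNPK (-0.01), HNRNPF (0.17), HNRNPA3 (0.08), HNRNPA0 (-0.06) and SRSF8 (-0.09) no longer passed. Those of TRA2B (0.53), CLK2 (0.56), HNRNPH1 (0.49), HNRNPC (0.29), HNRNPM (0.25), HNRNPR (-0.28) and SRSF3 (-0.43) passed only after the correction. The correction in DU145-pc3.1 cells added 1 call, that of HNRNPA0 (0.16, edgeR adjusted p = 0.0389), to make 28 of 42 beside 37.8% of tested genes, and for Esrrb in untreated cells CLK4 and HNRNPA0 passed as before.

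The wider splicing machinery was described with the same tests. Of 40 tested genes of the spliceosome core, 15 rose and 1 fell with DY131 in DU145-pc3.1 cells, and 14 rose and 16 fell in DU145-Esrrb cells, with a median of 0.05 there. These are 37.5% and 2.50% in DU145-pc3.1 cells, where 18.9% and 18.5% of all tested genes rose and fell, and 35.0% and 40.0% in DU145-Esrrb cells, where 29.2% and 29.5% did. Their median junction share was 21.3%, and after the correction 21 rose and 10 fell (52.5% and 25%, beside 27.4% and 26.0%). SF3B4 (0.88) and PHF5A (0.73), subunits of the SF3B complex, had the largest rises, and SNRPF (-2.03), a ring protein of the snRNPs, and SNRPA1 (-0.92) the largest falls. Of 28 SR-related proteins and SR kinases outside the members, 18 rose and 0 fell in DU145-pc3.1 cells, and 18 rose and 2 fell in DU145-Esrrb cells (64.3% and 7.14%), with a median of 0.29. PNN (1.31) rose the most and CLASRP (-1.47) fell the most. Of 30 other hnRNP proteins and tissue splicing regulators, 10 rose and 2 fell (33.3% and 6.67%) and then 13 rose and 7 fell (43.3% and 23.3%), led by TARDBP (1.07), a regulator of its own level, and MBNL2 (-0.76), a muscleblind protein. Of 15 genes of nonsense-mediated decay and the exon junction complex, 9 rose and 0 fell, and then 10 rose and 2 fell (66.7% and 13.3%), where SMG1 (0.63) rose and MAGOH (-1.06) fell the most. After the junction correction in DU145-Esrrb cells, 71.4% of the SR-related list rose and 10.7% fell. The shares were 46.7% and 20% for the other hnRNP list and 53.3% and 13.3% for the decay list. All stand beside 27.4% and 26.0% of all tested genes. Between the untreated pools 1 gene of these lists passed, SLU7 (-0.40), which was lower with Esrrb. It is 2.50% of the 40 genes of the spliceosome core, and 2.50% of all tested genes fell.

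Promoters were looked at last, since most of the members called with DY131 rose. RefSeq windows on GRCh38.p14 of 250 bases before and 50 after a transcription start were at hand for 37 of the 42 members (54 windows). The windows of 3 members are printed as examples, with the match in capitals: those of SRSF1 and SRRM2, the members with the largest rises in DU145-Esrrb cells among the holders of TGACGT, and of SRSF8, the member with AAGGTCA. For SRSF1 and SRRM2 this is TGACGT, the core of the cyclic AMP response element, and for SRSF8 it is AAGGTCA, the response element of the estrogen related receptors, here read on the opposite strand.
SRSF1: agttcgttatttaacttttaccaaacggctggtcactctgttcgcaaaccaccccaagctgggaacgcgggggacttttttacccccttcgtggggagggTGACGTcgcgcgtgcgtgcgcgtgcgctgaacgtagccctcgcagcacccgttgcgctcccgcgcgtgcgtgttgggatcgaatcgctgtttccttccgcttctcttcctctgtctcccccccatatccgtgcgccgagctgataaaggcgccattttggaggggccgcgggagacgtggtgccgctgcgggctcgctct
SRRM2: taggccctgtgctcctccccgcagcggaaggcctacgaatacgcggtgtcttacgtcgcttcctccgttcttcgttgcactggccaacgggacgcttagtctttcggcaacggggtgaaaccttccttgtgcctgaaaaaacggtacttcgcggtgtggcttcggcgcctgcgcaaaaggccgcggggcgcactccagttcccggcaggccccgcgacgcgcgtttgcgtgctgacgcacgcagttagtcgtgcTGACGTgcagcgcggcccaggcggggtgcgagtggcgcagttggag
SRSF8: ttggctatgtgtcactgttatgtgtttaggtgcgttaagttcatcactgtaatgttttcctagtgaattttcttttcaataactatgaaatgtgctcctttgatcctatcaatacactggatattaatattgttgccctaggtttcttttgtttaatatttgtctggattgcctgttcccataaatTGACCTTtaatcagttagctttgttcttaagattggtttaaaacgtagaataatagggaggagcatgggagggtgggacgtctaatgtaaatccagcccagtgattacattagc

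These windows are chr17:58007197-58007496 on the minus strand for SRSF1, chr16:2752388-2752687 on the plus strand for SRRM2 and chr11:95066627-95066926 on the plus strand for SRSF8. The match begins 150 bases before the start in SRSF1, at base 5 after it in SRRM2 and 64 bases before it in SRSF8. Both strands were searched. AAGGTCA was found in the windows of 1 member (2 of 54 windows, 3.70%) and in 3.92% of 35116 windows of all genes, and its extended form TCAAGGTCA in none of the members and in 0.353% of all. TGACGT was found in 10 members (18.5% of the 54 windows), namely SRSF1, SRSF3, SRSF5, SRRM2, TRA2B, CLK4, HNRNPA2B1, HNRNPH2, HNRNPK and U2AF1, and in 7.98% of all windows. The full palindrome TGACGTCA, which contains TGACGT, was in none of the members' windows and in 1.85% of all. The 10 members include genes that rose, fell and did not pass with DY131, and a match is a description of the letters and not of binding.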

How the data were processed

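RNA of 8 libraries was prepared with a stranded kit and sequenced as single 50-base reads. The deposited values are raw counts per gene with no normalization, which the authors made with their program MULTICOM-MAP after FASTX-Toolkit trimming and TopHat2 mapping on hg18. Whether strand or reads of several genes were considered is not given in the sources used here, so that genes overlapping on the opposite strand, such as SRSF2, SRSF9 and SRRM2, may share reads. From these counts, the 13856 genes that reached 1 cpm in 2 or more libraries were scaled with TMM and fitted as 4 groups in 1 model with edgeR 4.0.16 (R 4.3.3). Tests were edgeR's quasi-likelihood F tests with Benjamini-Hochberg adjustment over all tested genes. Cpm use effective library sizes. Replicates were compared as separate libraries, and both DY131-treated DU145-Esrrb columns carry the same heading and no replicate number. Lengths and junction shares come from GENCODE 29 on GRCh38, not from hg18, for 98.6% of the tested genes, with 40 members matched by RefSeq identifier and 2 by symbol. The junction correction used lowess offsets of span 0.3. The tests were tried on simulated counts with a fixed spread and with changes placed only in DY131-treated DU145-Esrrb cells. The other comparisons were not tried in this way. Alternatives were edgeR's exact test, DESeq2 1.42.0, other scalings and filters, a 1.5-fold threshold, fits of only the libraries compared, a length and GC correction, a replicate block and libraries left out. Values were given in full for members past both thresholds, for the 5 largest rises and falls that passed, and for SRSF1, PTBP1, SF3B1, ESRP1 and ESRP2. The members, their roles and the other lists were chosen with earlier results of these data known. The figures were drawn with matplotlib 3.10.9 in Python 3.11.15.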

Additional observations from a re-analysis of the deposited data

Results flagged for a closer look

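The DY131 effect differed between the cell pools at least 2-fold in 3 splicing factors, by the interaction term of edgeR's quasi-likelihood test. These are 7.14% of the 42 members, close to the 6.28% of all tested genes that passed the same rule. SRSF10 had a difference of 1.87 on the log2 scale (adjusted p = 0.00292). Its treated DU145-Esrrb libraries held 90 and 81 counts, and its other 6 libraries 18 to 34. U2AF1 had a difference of -1.05 (edgeR adjusted p = 6.22e-06), from a rise of 0.51 without and a fall of 0.54 on the log2 scale with Esrrb, and -0.47 after the junction correction. ESRP1 had a difference of -4.48 (edgeR adjusted p = 4.85e-04), from counts of 94 and 163 with DY131 in DU145-pc3.1 and of 3 and 1 with DY131 in DU145-Esrrb cells.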

How the results depend on the processing

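Of 658 values of named genes under alternatives, 620 kept their direction and their side of the threshold, and of 120 counts of members 101 stayed within 1.5 times the reported count. For Esrrb alone, members at an adjusted p under 0.05 (2) numbered 1 with DESeq2, 4 with no filter and 4 with only the 4 libraries, and members past both thresholds (0) numbered 1 in these last cases and 1 at 1.5-fold. Leaving out 1 library gave 0 to 0 at an adjusted p under 0.05. For DY131 in DU145-pc3.1, members past both thresholds (1) numbered 0 with at least 10 counts in every library, 6 at 1.5-fold and 1 to 2 without 1 library. For DY131 in DU145-Esrrb (4) they numbered 2 with at least 10 counts, 9 at 1.5-fold and 2 to 4 without 1 library, and for the interaction (3) 5 at 1.5-fold. With that count minimum ESRP1 is not tested, and SRRM2 is at 0.97 for DY131 in DU145-Esrrb. The share of all tested genes was not counted under these alternatives, so the numbers of members have no background beside them. Among the genes given with full values, the reversed ones were those of ESRP2 for Esrrb alone (0.0028 with library size alone, 0.0085 with the length and GC correction, -0.0654 to 0.0542 without 1 library), of SF3B1 for DY131 in DU145-Esrrb (0.11 with the length and GC correction, 0.34 with the junction correction) and of U2AF1 (0.0529) and HNRNPL (0.0159) with the junction correction. Over all 42 members, those whose direction turned under at least 1 alternative numbered 11 for Esrrb alone, 7 for DY131 in DU145-pc3.1, 8 for DY131 in DU145-Esrrb and 19 for the interaction. Called members among them were U2AF1 and HNRNPL for DY131 in DU145-Esrrb and SRSF8 and HNRNPA0 for the interaction, each with the junction correction. Depth limits ESRP1 and SRSF10, which have few counts.

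Replicate numbers are known for 6 libraries. The deviations of same-numbered libraries had correlations of 0.11, 0.02 and -0.07 between the 3 pairs of groups. These values cannot show whether libraries with the same number belong together. The numbers are those of the sample titles, and the column headings number some of the same libraries differently. With the replicate number as a block, 1 member passed for Esrrb alone, and 0 when the block was dropped from that fit.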
